A study of Rattus norvegicus with 8 samples.

Results

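The genes described here encode the sarcomere, the contractile unit of the heart muscle cell, and the Z-disc, the plate that anchors its actin filaments. They were taken from a list of 37 gene symbols, and a probe set belonged to a gene where the platform annotation gave that symbol and no other. Of the 37, 29 had such a probe set, each gene exactly 1, among 14497 named genes on the array. Myl4, Nebl, Tcap, Myom2, Cmya5, Xirp1, Synpo2l and Flnc had none under this rule and were not analysed here. The selection rule used gene symbols and no measured value, but the list was proposed with earlier results of these data known.

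The tissue was left ventricle from late-pregnant female rats, whose strain and age were not given in the sources used here. Every heart, placebo hearts included, had gone through ischemia, a stop of its blood supply, followed by reperfusion. Reperfusion was with vehicle in 3 hearts (placebo), and in 5 with a single bolus of 5 mg/kg of the treatment that the sample labels write as ILPD and the design text as ITLD. Both spellings are assumed to mean Intralipid, the lipid emulsion named in the series title. Hearts without ischemia were not analysed here, so each difference below compares ILPD with vehicle among injured hearts. No label states that replicates were separate animals. Each p-value thus rests on variation among these 8 arrays, some of which may be technical.

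In the sarcomere, myosin heads on the thick filament pull on actin in the thin filament, and calcium bound by the troponin complex on the thin filament switches this on. Titin spans from the Z-disc to the M-band and holds the thick filament in place, while alpha-actinin crosslinks actin at the Z-disc. Several Z-disc proteins also carry signals of mechanical load to the nucleus. Rodent ventricle mainly uses the alpha myosin heavy chain and cardiac actin, and under load it is known to raise beta myosin heavy chain and skeletal actin, a fetal pattern.

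The promoters of 4 members are shown as examples: Acta1 and Actc1, the skeletal and cardiac actin genes, which are compared as a pair, Unc45b, which passed the test, and Fhl2, whose stretch held the most of the motifs searched. Each is the 250 bases before the RefSeq start in build GRCr8, written 5′ to 3′ along the gene. The stretches lie at chr19:68784195-68784444 on the minus strand for Acta1, chr3:121271828-121272077 on the minus strand for Actc1, chr10:68342761-68343010 on the plus strand for Unc45b and chr9:52954541-52954790 on the minus strand for Fhl2, which has 2 promoters in the table. Capitals mark matches on either strand to the CArG box (bound by serum response factor), the MEF2 box (bound by MEF2 factors), CATTCC (the M-CAT motif of TEAD factors) and TATAAA, and adjoining or overlapping matches form 1 run.
Acta1: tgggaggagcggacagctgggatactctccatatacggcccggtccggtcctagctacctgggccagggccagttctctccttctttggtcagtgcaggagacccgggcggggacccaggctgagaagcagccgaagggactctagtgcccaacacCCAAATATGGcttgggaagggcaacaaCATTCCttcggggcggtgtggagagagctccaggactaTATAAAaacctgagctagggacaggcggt
Actc1: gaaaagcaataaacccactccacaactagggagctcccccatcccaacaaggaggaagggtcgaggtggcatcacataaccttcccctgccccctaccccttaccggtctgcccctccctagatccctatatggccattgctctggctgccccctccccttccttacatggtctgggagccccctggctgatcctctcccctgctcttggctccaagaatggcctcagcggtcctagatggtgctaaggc
Unc45b: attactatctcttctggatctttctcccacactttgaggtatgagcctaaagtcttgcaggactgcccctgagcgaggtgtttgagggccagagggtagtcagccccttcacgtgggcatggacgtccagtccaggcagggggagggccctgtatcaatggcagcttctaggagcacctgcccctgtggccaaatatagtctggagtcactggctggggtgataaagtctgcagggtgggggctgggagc
Fhl2: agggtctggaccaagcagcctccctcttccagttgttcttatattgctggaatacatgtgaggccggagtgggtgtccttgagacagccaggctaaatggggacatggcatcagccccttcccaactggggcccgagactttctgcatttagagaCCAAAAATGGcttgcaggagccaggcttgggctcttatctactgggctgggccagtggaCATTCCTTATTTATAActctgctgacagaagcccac
The Acta1 stretch held a CArG box, a CATTCC and a TATAAA, and the Fhl2 stretch held all 4 motifs. Neither the Actc1 nor the Unc45b stretch held any of the 4, which says only that these letters are not in the window. The table had a promoter for 25 of the 29 members and 27 promoters in all. A CArG box was in 5 of these 27 (18.5%), against 1.5% of all 33469 promoters of this length. For the MEF2 box the share was again 18.5%, against 2.96%. CATTCC was in 25.9% against 12.1%, TATAAA in 14.8% against 12.9%, and the general muscle motif CANNTG in 88.9% against 65.5%. The heat shock element core GAANNTTC was in 0 of the 27, against 7.23% of all promoters. These matches are a description of the sequence and not evidence of binding.

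The values were log2 signals from Affymetrix arrays. Array medians ran from 7.08 to 7.14 in placebo and from 7.16 to 7.196 in ILPD, without overlap, and correlations within a group ran from 0.9905 to 0.9955. In limma's test of 28826 probe sets, adjusted by Benjamini-Hochberg, 811 passed an adjusted p of 0.05 and 69.5% of these were higher in ILPD. After a further quantile normalization 62.4% of the calls were higher. The number of arrays limits the precision.

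Of the 29 measured sarcomere and Z-disc genes, 2 fell in the ILPD hearts, Tnnc1 and Unc45b, and 0 rose, while 0.857% of all probe sets and 1.17% of named genes were called lower, and 2.81% of probe sets in either direction. The difference was negative for each of the 29 as deposited, from -0.68 to -0.0029 on the log2 scale with a median of -0.18, but for 16 after cyclic loess, with a median of -0.0074 and 0 calls. The median difference was 0.01 over all named genes and 0.02 over all probe sets. An unadjusted p under 0.05 was found for 13 of the 29 (44.8%), for 20.9% of named genes and for 18.3% of all probe sets. On 10 members every ILPD array lay below every placebo array, which held for 4.42% of all probe sets and for 845 of the 14497 named genes. Neither these 10 nor the 13 with a low unadjusted p were set against genes of equal signal. Most of those genes were also lower in ILPD, so no excess is read from the 2 counts.

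Signal level has to be read beside these counts, because most bright named genes outside the list also had negative differences as deposited. Of the 29 members, 27 lay among the brightest 10% of named genes and 22 had a mean log2 value above 12. Among other named genes with a mean between 12 and 13, 90.1% had a negative difference, with a median of -0.15, and 7.35% were called lower. Between 13 and 15 these were 95.7%, -0.16 and 6.03%. Of the named genes with means from 7 to 8, 27.8% had a negative difference. The count of 29 negative differences, and 2 calls, is therefore near what genes of equal signal gave.

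Each member was set against all other named genes whose mean lay within 0.5 of its own, between 30 genes for Actc1 and 1867 for Pdlim5. These reference medians ran from -0.17 to -0.06. Relative to them the members had a median of -0.03, with 19 below and 10 above. Within 0.1 of the reference lay 18 members. More than 0.1 below it were Myl7, Acta1, Unc45b, Tnnc1, Myom1, Myh7, Smyd1, Ldb3, Mybpc3 and Mypn, and more than 0.1 above it was Csrp3. The distance from the reference was not tested, and the standard error of a member's own difference lay between 0.05 (Myoz2) and 0.53 (Myl7).

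**Figure D1:**
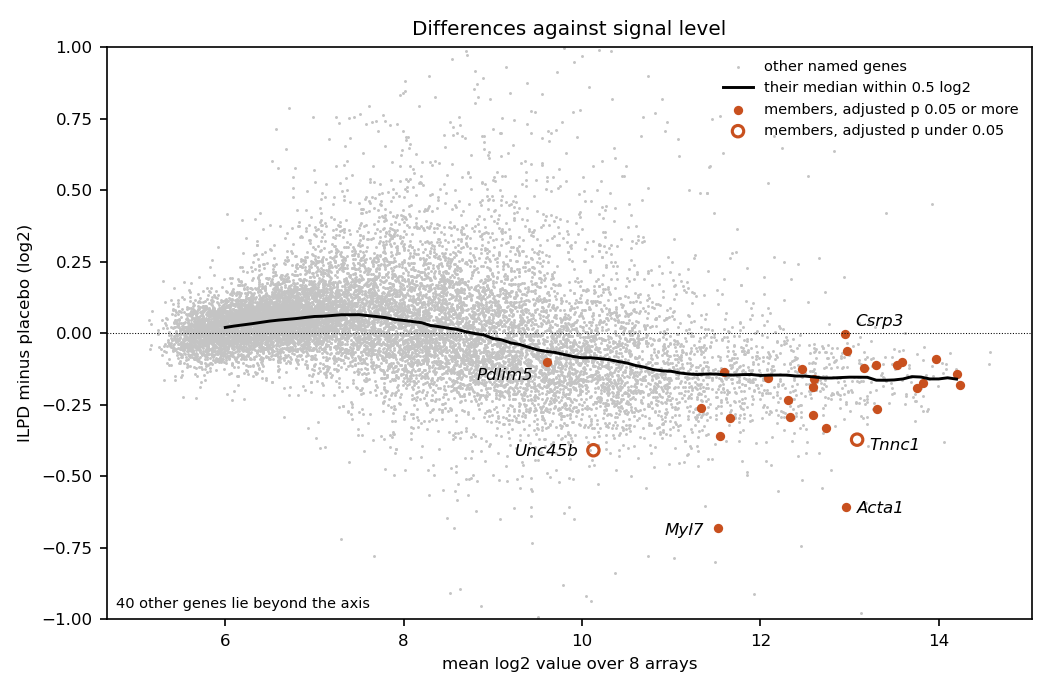
Difference between ILPD and placebo (log2, vertical) against the mean log2 value over 8 arrays (horizontal) for named genes. Grey points are other named genes (40 lie beyond the axis), the black line is their median within 0.5 log2, filled circles are members and the open circles Tnnc1 and Unc45b are those with an adjusted p under 0.05. The line falls from above 0 near a level of 7 to about -0.15 above 12, and most members lie close to it.

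Among the thick filament genes, 0 of 6 measured passed the test. Myh6, the fast alpha myosin heavy chain, read 13.96, 13.78 and 13.89 on the placebo arrays and 13.58, 13.72, 13.60, 13.72 and 13.79 on the ILPD arrays. The ILPD values were on average 0.19 lower (SE 0.07, limma adjusted p = 0.165), and ILPD 5 overlapped the placebo range. Myh7, the slow beta heavy chain, read 12.36, 13.37 and 13.11 in placebo and 12.44, 12.72, 13.17, 12.01 and 12.72 in ILPD. Its groups overlapped widely, with a difference of -0.33 (SE 0.27, adjusted p = 0.567). The ventricular light chains Myl2 and Myl3, which stiffen the myosin neck, differed by -0.11 and -0.14 (adjusted p = 0.385 and 0.264), 0.05 and 0.02 above genes of equal signal. Mybpc3, myosin-binding protein C, which restrains the myosin heads, differed by -0.29 (SE 0.08, adjusted p = 0.0899) with no overlap between groups.

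Myl7, the atrial regulatory light chain, was the most variable member, with a pooled within-group SD of 0.94 against a median of 0.10 over the 29. It read 10.83, 13.18 and 11.85 in placebo and 11.90, 11.54, 11.04, 11.87 and 10.003 in ILPD. Placebo 2 was the highest and ILPD 5 the lowest of all arrays, and the other 6 values were mixed between the groups. The difference of -0.68 (SE 0.53, limma adjusted p = 0.556) had a 95% confidence interval from -1.87 to 0.51, and it was -0.07 without placebo 2. Other genes of atrial muscle did not peak on the same array. Nppa, the atrial natriuretic peptide, was highest on placebo 1 (11.67), and Sln, a calcium pump inhibitor of the atria, and Bmp10, an atrial growth factor, were highest on ILPD 1 (10.10 and 6.91). Dkk3, a further marker on the atrial list, was also highest on ILPD 1 (10.92). Sln (7.98) and Bmp10 (6.08, in the low range of the array) were lowest on ILPD 5, as Myl7 was, and Nppa and Dkk3 were not. The mean level of the 5 measured atrial markers, Myl7 included, ran from 9.58 to 9.97 in placebo and from 9.14 to 10.22 in ILPD. The part of atrial tissue in these values was not tested.

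In the thin filament, 1 of 8 measured genes fell. Tnnc1, troponin C, the calcium sensor of the filament (probe set 10786640), read 13.25, 13.40 and 13.31 in placebo and 13.04, 12.95, 12.98, 12.81 and 12.94 in ILPD. All ILPD arrays lay below all placebo arrays. Tnnc1 fell by 0.37 (SE 0.07, 95% confidence interval -0.52 to -0.23, limma adjusted p = 0.0195), or by 22.8% on the linear scale. Its mean was 13.32 ± 0.08 in placebo (SD, n = 3) and 12.95 ± 0.09 in ILPD (SD, n = 5). It was 0.22 below genes of equal signal, of which 3.61% had a lower difference still. Its call was lost in 5 of 15 alternatives, among them those without placebo 2 (adjusted p = 0.0887) or placebo 3 (0.0689) and with quantile normalization (0.121) or cyclic loess (-0.19, 0.205). The adjusted p ranged from 0.0177 to 0.205 over the 15.

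The other troponin subunits differed little. Tnni3, the inhibitory subunit, differed by -0.12 (SE 0.06, limma adjusted p = 0.313), with no overlap between groups, as for Tnnc1. Tnnt2, which ties the complex to tropomyosin, differed by -0.09 (SE 0.06, adjusted p = 0.470), with overlap. Both were above genes of their signal level, by 0.04 and 0.07, and positive after quantile normalization and cyclic loess. Tpm1, alpha tropomyosin, which covers the myosin sites on actin at rest, differed by -0.16 (adjusted p = 0.228), also without overlap. Among the proteins that set the length of the filament at its pointed end, Tmod1, the cap, differed by -0.23 with no overlap (adjusted p = 0.0864). Lmod2, which lengthens the filament, differed by -0.19 (adjusted p = 0.459), with ILPD 5 at 12.87 apart from the other ILPD arrays.

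Acta1, skeletal alpha-actin, whose promoter is printed above, read 13.57, 13.12 and 13.33 in placebo. The ILPD values were 12.49, 12.99, 12.47, 12.55 and 13.16. ILPD 1, 3 and 4 lay well below the placebo arrays, and ILPD 5 overlapped them. The difference of -0.61 (SE 0.17, 95% confidence interval -0.99 to -0.23, limma adjusted p = 0.0928) did not pass, but did without ILPD 5 (-0.72, adjusted p = 0.0355). That was the only 1 of 15 alternatives with a call. The difference was -0.43 after cyclic loess (adjusted p = 0.213) and -0.45 after quantile normalization (0.221). As deposited, Acta1 was 0.45 below genes of equal signal, of which 0.556% had a lower difference. Actc1, cardiac alpha-actin, the main actin of the adult ventricle, read 14.37, 14.26 and 14.42 in placebo and 14.11, 14.09, 14.03, 14.23 and 14.38 in ILPD. Its difference of -0.18 (SE 0.08, adjusted p = 0.280) was 0.03 below genes of equal signal. The 2 actin transcripts are close copies in their coding parts, and how far each probe set reads the other was not tested.

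**Figure D2:**
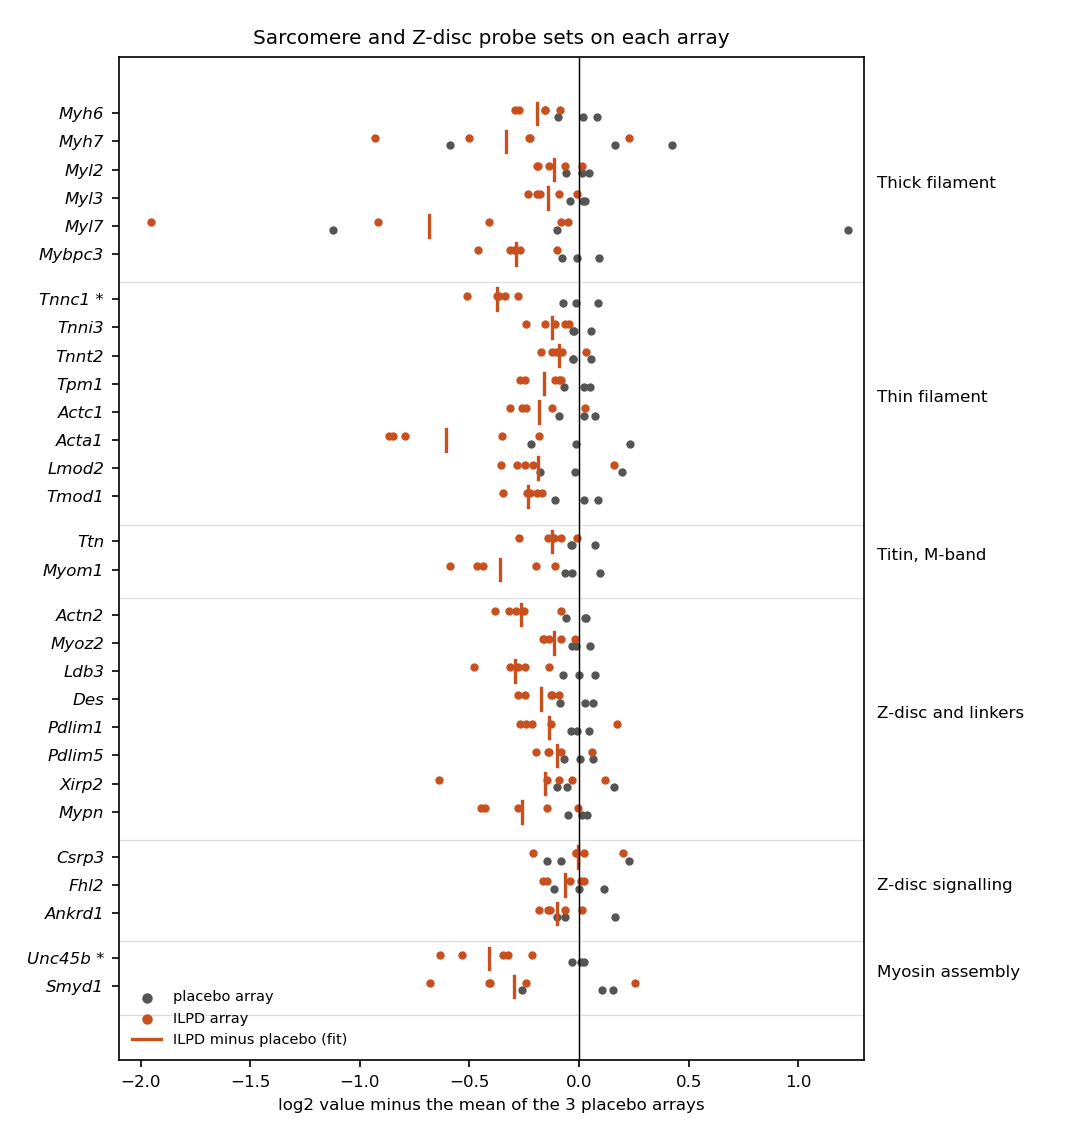
Log2 value of each member on each array minus the mean of the 3 placebo arrays (horizontal), with grey points for placebo, orange points for ILPD and an orange bar for the fitted difference. A star marks an adjusted p under 0.05. Most ILPD points lie to the left of 0 by less than 0.5, and Myl7 and Myh7 are widely spread in both groups. Tnnc1 and Unc45b are among the 10 members with no overlap.

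Titin and the M-band proteins gave 0 calls among 2 measured. Ttn, the giant elastic protein of the sarcomere, differed by -0.12 (SE 0.07, limma adjusted p = 0.363), 0.03 above genes of equal signal. Myom1, myomesin, which crosslinks thick filaments at the M-band, read 11.87, 11.71 and 11.74 in placebo and 11.33, 11.66, 11.31, 11.18 and 11.57 in ILPD. The groups of Myom1 did not overlap, ILPD 2 coming nearest to placebo. The difference of -0.36 (SE 0.11, adjusted p = 0.108) was 0.22 below genes of equal signal and did not pass.

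The Z-disc and its linkers gave 0 calls among 8 measured genes of 13 listed, with a median of -0.17. Actn2, sarcomeric alpha-actinin, read 13.50, 13.42 and 13.51 in placebo and 13.09, 13.15, 13.22, 13.19 and 13.39 in ILPD. No array of Actn2 overlapped the other group, and the difference was -0.27 (SE 0.07, limma adjusted p = 0.0797). Ldb3, the PDZ and LIM protein that binds alpha-actinin, differed by -0.29 (SE 0.08, adjusted p = 0.0767), also without overlap. Both passed without ILPD 5 (adjusted p = 0.0271 and 0.0442), for each the only 1 of 15 alternatives with a call. After cyclic loess Actn2 differed by -0.08 (adjusted p = 0.624) and Ldb3 by -0.13 (0.393). With quantile normalization the adjusted p was 0.341 and 0.382. Mypn, myopalladin, a partner of alpha-actinin and nebulette, differed by -0.26 (adjusted p = 0.198). Smaller differences were found for Des, desmin, the intermediate filament around Z-discs (-0.17, adjusted p = 0.190, no overlap), for Xirp2, an actin-binding Xin repeat protein (-0.16, 0.634), and for Myoz2, a Z-disc protein that binds calcineurin (-0.11, 0.317). Pdlim1 and Pdlim5, further PDZ and LIM proteins, differed by -0.14 (0.504) and -0.10 (0.487).

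The 3 Z-disc and I-band proteins that also act in signalling had the smallest differences of the role groups, with a median of -0.06. Csrp3, the muscle LIM protein, a candidate sensor of stretch, read 12.87, 12.81 and 13.18 in placebo and 12.94, 13.16, 12.97, 12.74 and 12.94 in ILPD. These values were fully mixed, and the difference was -0.0029 (SE 0.10, 95% confidence interval -0.24 to 0.23, limma adjusted p = 0.992). Set against genes of equal signal it was 0.15 higher, and 94.1% of those genes had a lower difference. Fhl2, a LIM protein that binds titin and transcription factors, differed by -0.06 (SE 0.07, adjusted p = 0.696). Ankrd1, the cardiac ankyrin repeat protein induced by load, read 13.59, 13.55 and 13.82 in placebo and 13.47, 13.59, 13.67, 13.51 and 13.52 in ILPD. Its difference of -0.10 (adjusted p = 0.524) was within the spread between arrays. All 3 lay above genes of equal signal and were positive after quantile normalization and cyclic loess, where none passed (lowest adjusted p over their alternatives 0.340).

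Of the 2 factors that fold and assemble myosin, Unc45b fell. Unc45b, a myosin chaperone that works with Hsp90 (probe set 10736764), read 10.41, 10.35 and 10.39 in placebo and 10.04, 10.17, 9.75, 9.85 and 10.06 in ILPD. The placebo arrays were tightly grouped and every ILPD array lay below them. Unc45b fell by 0.41 (SE 0.09, 95% confidence interval -0.61 to -0.21, limma adjusted p = 0.0461), or by 24.7% on the linear scale. Its mean was 10.38 ± 0.03 in placebo (SD, n = 3) and 9.97 ± 0.17 in ILPD (SD, n = 5). It was 0.32 below genes of equal signal, of which 1.80% had a lower difference. The call lay close to the threshold: it was lost in 10 of 15 alternatives, with adjusted p from 0.0370 to 0.134 over the 15. Among these losses were the fits without placebo 1, 2 or 3 (0.134, 0.126 and 0.13), without ILPD 1, 3 or 4 (0.0555, 0.0602 and 0.0942), and those with quantile normalization (0.0598), cyclic loess (0.0587) or an intensity trend (0.0581). Smyd1, a methyltransferase of muscle needed for myofibril assembly, differed by -0.30 (SE 0.18, adjusted p = 0.438), with ILPD 5 at 12.11 above all placebo arrays.

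**Figure D3:**
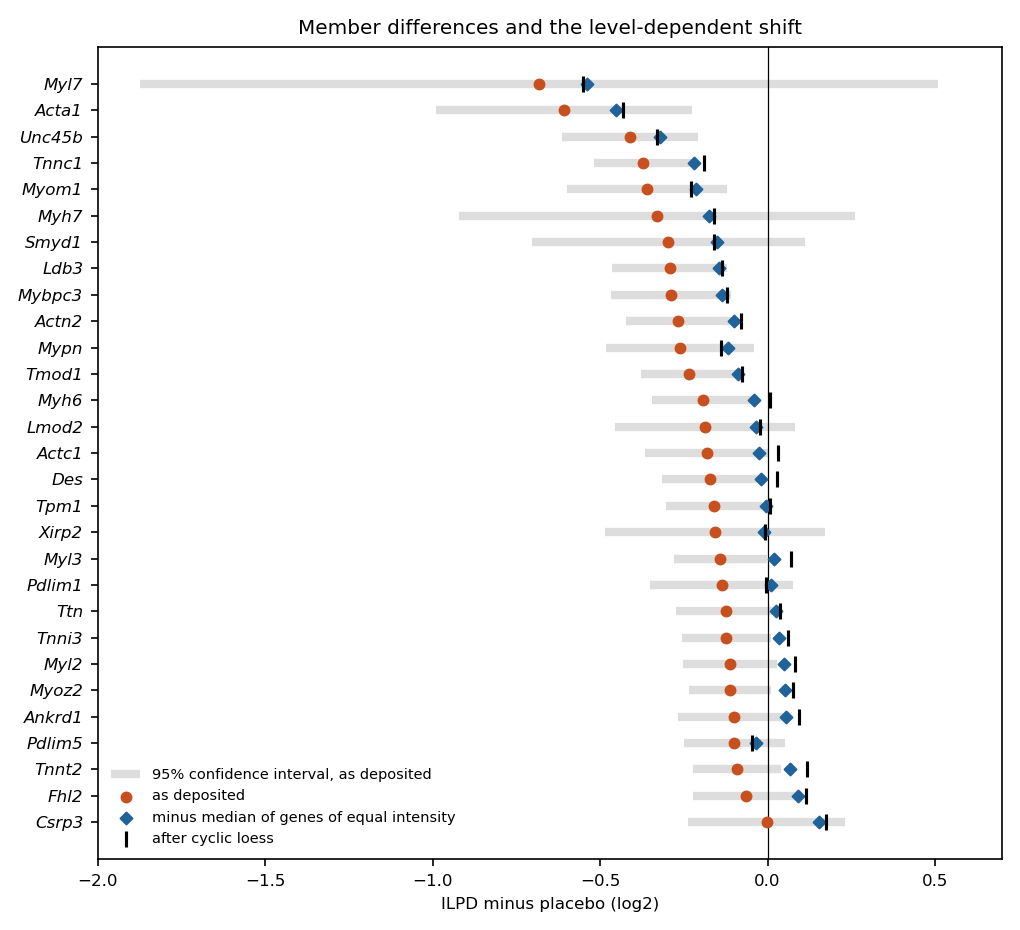
ILPD minus placebo (log2, horizontal) for each of the 29 members, as deposited (orange circles, with 95% confidence intervals in grey), minus the median of genes of equal intensity (blue diamonds) and after cyclic loess normalization (black ticks). Subtracting the reference moves the median from -0.18 to -0.03, and cyclic loess moves it to -0.0074. After cyclic loess 16 members stay below 0, with Myl7, Acta1, Unc45b, Myom1 and Tnnc1 the lowest.

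The choice of scaling decided the sign of many small differences. After cyclic loess, which removes level-dependent shifts between arrays, 16 of the 29 were negative and 13 positive, with a median of -0.0074. Quantile normalization left 21 negative and 8 positive, with a median of -0.04. Neither left any member past the threshold.

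Arrays of 1 group were not alike. The median deviation of the members from their own 8-array means was 0.13, 0.05 and 0.17 on the placebo arrays and -0.13, -0.03, -0.10, -0.12 and 0.03 on the ILPD arrays. No ILPD array reached the lowest placebo array in this median, and ILPD 5 came closest. Genes of equal signal moved the same way, with 0.12, 0.05 and 0.12 in placebo and -0.03, -0.06, -0.10, -0.12 and 0.0042 in ILPD. On ILPD 1 the members stood 0.08 below those genes, and it held the lowest value of 13 of the 29 members. ILPD 5 held the highest value of 2 members, and 16 of the 29 were below the lowest placebo array there, against 22 to 26 on the other ILPD arrays.

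**Figure D4:**
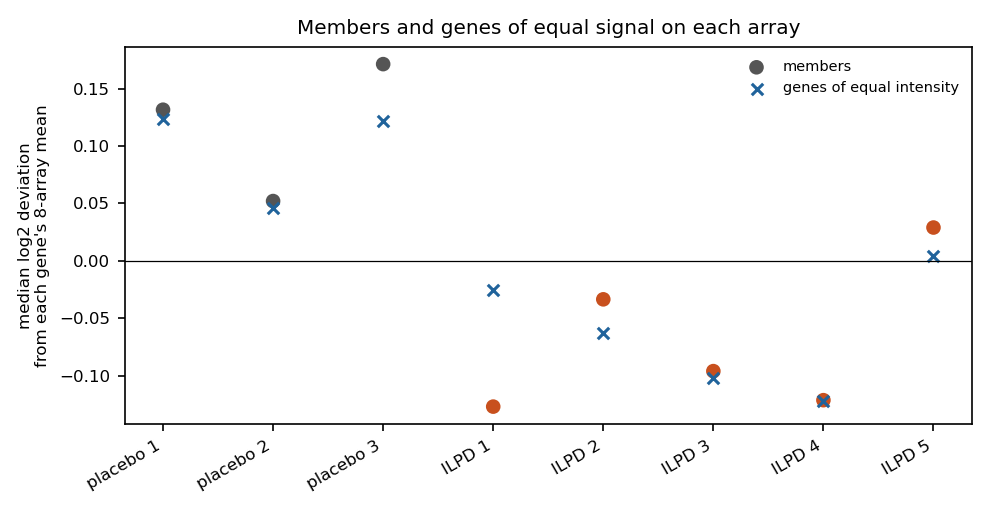
Median log2 deviation from each gene's 8-array mean (vertical) on each array (horizontal), for the members (circles, grey for placebo and orange for ILPD) and for genes of equal intensity (blue crosses). The members follow the crosses on most arrays and fall below them on ILPD 1, where they stood at -0.13 against -0.03.

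To see whether fetal or skeletal isoforms shifted against adult ventricular ones, the log2 difference between 2 probe sets was taken within each array. Levels of different probe sets are not comparable, so only the change of this difference between groups is read. Acta1 minus Actc1 was -0.80, -1.13 and -1.09 in placebo and -1.62, -1.10, -1.56, -1.68 and -1.22 in ILPD. ILPD 2 overlapped placebo, and the change of -0.43 did not pass (exact permutation test, two-sided, p = 0.0714, adjusted over 4 pairs 0.286). The smallest p this design of 56 splits allows is 0.0357. Myh7 minus Myh6 changed by -0.14 (exact p = 0.679), from -0.93 ± 0.61 (SD, n = 3) to -1.07 ± 0.45 (SD, n = 5). Tnni1 minus Tnni3, the slow skeletal against the cardiac inhibitory troponin, changed by 0.15 (exact p = 0.143), a sign that turned after quantile normalization (-0.08) and cyclic loess (-0.10). Myl7 minus Myl2 changed by -0.57 (exact p = 0.5), and by 0.07 without placebo 2.

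**Figure D5:**
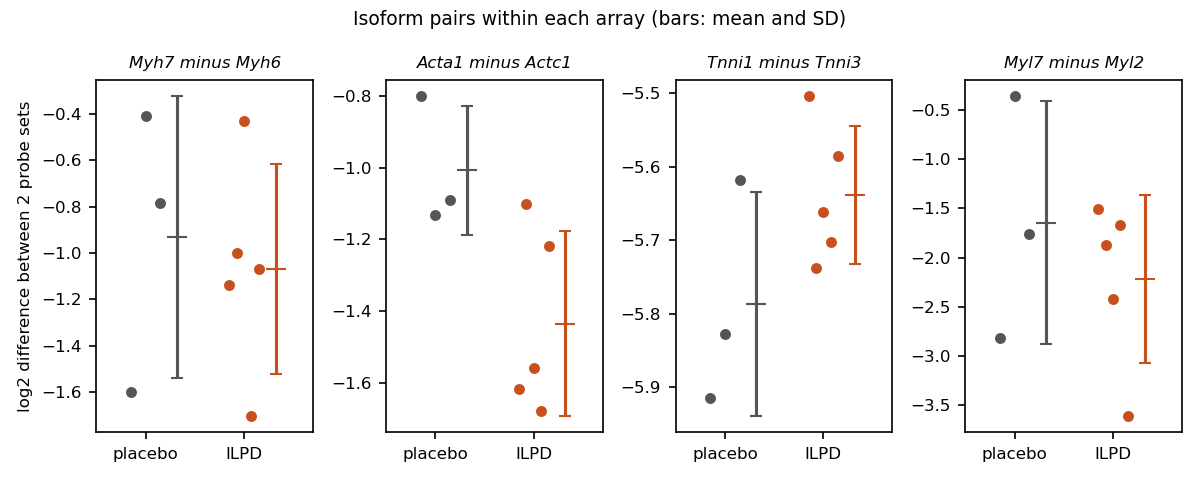
Log2 difference between 2 probe sets within each array (vertical, a scale of its own for each pair) for placebo (grey) and ILPD (orange), with mean and SD as bars. All 4 pairs overlap between the groups, and Acta1 minus Actc1 has ILPD 1, 3, 4 and 5 below every placebo array.

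Related genes outside the list were followed through a second list of 89, of which 70 had a probe set. In limma's test 1 rose and 2 fell, against 1.96% and 0.857% of all probe sets, and the median was -0.04. Of 36 further structural genes, Pdlim2, a PDZ and LIM protein that targets proteins for degradation, rose by 0.40 (SE 0.08, adjusted p = 0.0258). Its mean was 6.93 ± 0.0050 in placebo (SD, n = 3) and 7.34 ± 0.13 in ILPD (SD, n = 5). The placebo mean lay below the lowest array median (7.08). Other named genes with means from 7 to 8 had a median difference of 0.06 as deposited. The Pdlim2 call was lost after cyclic loess (0.0730), and no related gene was called higher after quantile normalization or without placebo 1, 2 or 3 or ILPD 2 or 3. Of 15 genes for turnover and chaperones, Hsp90aa1, the inducible Hsp90 that works with Unc45b, fell by 1.35 (adjusted p = 0.00108), and Bag3, a cochaperone that clears damaged filamin at the Z-disc, fell by 0.74 (0.0102). Cryab, the small heat shock protein that binds desmin and titin, differed by -0.13 (0.264). Among 7 kinases and signalling proteins 0 passed, and the largest difference was that of Speg, a striated muscle kinase (-0.33, 0.0819). Among 12 cardiac transcription regulators 0 passed, and Tbx5 had the largest difference (0.30, 0.408).

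Markers of other cell types were read beside the members, since in bulk tissue fewer cells of a type and less RNA per cell cannot be told apart. The 11 measured ventricular markers outside the sarcomere had 10 negative differences, a median of -0.10 and 0 calls. Their mean level ran from 12.38 to 12.50 in placebo and from 12.20 to 12.44 in ILPD, and the largest difference was that of Kcnj2, a potassium channel (-0.35, limma adjusted p = 0.154). Signal level bears on these signs too. The 11 had means from 9.17 (Kcnj2) to 14.57 (Mb), so no single level serves for all of them. Among other named genes with means from 9 to 10, 62.9% had a negative difference as deposited, with a median of -0.06. From 10 to 11 these were 72.9% and -0.10, and from 13 to 15 they were 95.7% and -0.16. After cyclic loess some of the 11 were positive and others negative, with Kcnj2 at -0.32. All 7 neutrophil markers had a positive difference with a median of 0.74, their mean level running from 7.62 to 8.33 in placebo and from 8.19 to 9.23 in ILPD, and 1 rose, the gelatinase Mmp9 (0.58, adjusted p = 0.0466; 0.0851 after cyclic loess), with overlapping groups. Of 8 monocyte and macrophage markers 7 were positive (9.27 to 9.63 and 9.60 to 10.07), with 0 calls and the largest difference for Ccr2 (1.21, 0.0624). Gene means ran from 6.59 to 9.77 on the neutrophil list and from 8.11 to 12.24 on the monocyte and macrophage list. Of other named genes, 32.1% were negative as deposited at means from 5 to 7, 27.8% from 7 to 8 and 46.6% from 8 to 9. Their median differences were 0.03, 0.06 and 0.02. Medians were 0.10 for 7 endothelial, -0.06 for 9 fibroblast, 0.15 for 9 smooth muscle, 0.02 for 9 skeletal muscle and -0.04 for 3 erythrocyte markers, each list with 0 calls. In these lists the largest differences were those of Kdr (0.32, 0.127), Fn1 (0.61, 0.129), Tagln (0.30, 0.113), Ckm (-0.24, 0.0899) and Alas2 (-0.10, 0.804), and Sln had that of the atrial genes outside the members (0.53, 0.501). Ckm, with a placebo mean of 13.88, was on both the ventricular and the skeletal muscle list, so its value is not particular to skeletal muscle. The smooth muscle list likewise held the member Des. The skeletal myosins Myh1, Myh2 and Myh4 read 6.61, 6.66 and 6.38 on average, in the low range of the array. The part of these cell types in the members' values was not tested.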

How the data were processed

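The authors deposited log2 expression values of 8 Affymetrix arrays (biotin-labelled RNA, per the labels' protocols). The log2 scale was read from their range, how they were normalized is not stated in the labels, and the submitters' processing notes name R 2.14.2. Names came from the platform annotation: 15209 of 28826 probe sets had 1 symbol, 306 several and 13311 none here, and 15178 matched the RefSeq gene table (GRCr8) by gene ID. No detection calls were used.

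ILPD and placebo were compared with limma 3.58.1 (R 4.3.3; lmFit, eBayes, no covariates), two-sided, Benjamini-Hochberg over all probe sets, threshold 0.05. A gene was read from its brightest probe set. The fit was checked on simulated data. Isoform pairs used exact permutation tests (scipy 1.17.1). Genes of equal intensity were all other named genes within 0.5 log2. Named were all members, the related and marker genes past the threshold or, in a list with none, the largest difference, and Hsp90aa1, Bag3, Cryab and Nppa. The other atrial markers were named beside Myl7. The members and lists were chosen with earlier results of these data known. Alternatives covered quantile and cyclic loess normalization, an intensity trend, array weights, a filter on the dimmest 40%, a replicate block, a threshold of 0.10, averaging over probe sets per gene, a window of 0.25, all probe sets as the reference and leaving out each array.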

Additional observations from a re-analysis of the deposited data

Results flagged for a closer look

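Of 35 values looked at over the 5 ILPD arrays, 1 had an array far from the others, where chance gives about 1 in 20. Lmod2, leiomodin, read 12.87 on ILPD 5, against 12.49 for the next highest ILPD array, a gap of 0.72 of the group's whole range (critical value 0.71). Without ILPD 5 the Lmod2 difference was -0.27 in place of -0.19 (limma adjusted p = 0.13 and 0.459).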

How the results depend on the processing

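Over all probe sets, 811 calls became 484 after quantile normalization, 459 with the replicate block, 1756 at a threshold of 0.10 and 172 to 975 when leaving out an array (172 without placebo 2). The 2 member calls became 0 after quantile normalization, cyclic loess, or the replicate block, 1 with an intensity trend, 7 at 0.10, and 0 to 5 when leaving out an array (0 without placebo 2 or 3, 1 without placebo 1 or ILPD 1, 3 or 4, 5 without ILPD 5). The 3 related calls became 5 at 0.10 and 1 to 5 when leaving out an array (1 without placebo 2, 5 without ILPD 5). The members' median moved from -0.18 to -0.042 (quantile) and -0.0074 (loess), and to -0.15 to -0.23 when leaving out an array. Their distance from genes of equal intensity, -0.03, was -0.080 with the replicate block and -0.0053 to -0.06 when leaving out an array. Acta1 minus Actc1 reached exact p = 0.0357 after loess (-0.46). Tnni1 minus Tnni3 turned to -0.082 (quantile) and -0.10 (loess), and when leaving out an array ran from 0.08 to 0.23. Myh7 minus Myh6 ran from -0.47 to 0.12 (0.12 without placebo 2, 0.02 without ILPD 4), and Myl7 minus Myl2 from -1.16 to 0.073. Member differences turned positive after loess for Myh6 (0.0075), Myl2 (0.081), Myl3 (0.071), Tnni3 (0.060), Tnnt2 (0.12), Tpm1 (0.0065), Actc1 (0.031), Ttn (0.038), Myoz2 (0.075), Csrp3 (0.17), Des (0.029), Fhl2 (0.11) and Ankrd1 (0.094), and after quantile normalization for Myl2 (0.013), Tnni3 (0.022), Tnnt2 (0.038), Ttn (0.028), Myoz2 (0.036), Csrp3 (0.14), Fhl2 (0.083) and Ankrd1 (0.050). Csrp3 was also positive with array weights (0.043), with the replicate block (0.070), and without placebo 3 (0.11) or ILPD 4 (0.049), its range when leaving out an array being -0.077 (without placebo 2) to 0.11. The cause of these turns was not tested. Replicate numbers 1, 2 and 3 correlated across groups at 0.22, -0.06 and -0.10. Arrays of unlike number were not compared in this way, so whether the numbers pair the arrays was not tested. The replicate block also lost the calls of Tnnc1 (limma adjusted p = 0.103) and Unc45b (0.118). Averaging over probe sets could not change a member, since each has 1, and the filter on dim probe sets leaves differences as they are. Over the other 13 alternatives, 334 of 377 checks of single members kept direction and side of the threshold, 25 turned sign, 15 lost a call and 3 gained one.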

Other observations

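Among the related genes, Ankrd2, a paralog of Ankrd1 that is also an ankyrin repeat protein of the sarcomere, had the largest positive difference, and it is named here after its values were seen. It read 7.73, 8.07 and 7.80 in placebo and 8.18, 9.29, 9.52, 9.13 and 8.35 in ILPD, with no overlap between the groups. The difference of 1.03 (SE 0.29, 95% confidence interval 0.39 to 1.66, limma adjusted p = 0.0899) did not pass, and it was 1.01 after cyclic loess (adjusted p = 0.124). Ankrd23, the third gene of that family, differed by 0.45 with overlapping groups (adjusted p = 0.469), and Ankrd1 by -0.10. Klhl40, which stabilizes thin filament proteins in skeletal muscle, differed by -0.65 (adjusted p = 0.237), with placebo 3 at 10.22 above all other arrays.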
